A study of Mus musculus with 4 samples.

Results

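The Wnt ligands, their receptors and co-receptors, the secreted proteins that dampen or amplify their signal, and transcriptional readouts of the pathway were followed in cultured mouse osteoblasts, as 51 of the 22180 genes that the array annotation names. Members were taken by symbol: the Wnt, Fzd, Dkk, Sfrp and Rspo families together with Frzb, Sost, Sostdc1, Wif1, Lrp4, Lrp5, Lrp6, Axin2, Lef1 and Notum. Tcf7, the remaining symbol of the rule, had no row with a single symbol and was not analysed here. Where a gene had several rows, the row with the highest mean stood for it.

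The series compared Runx3f/f/Col1a1-cre with wild-type (WT) primary osteoblasts to find the genes that depend on Runx3, a Runt-family transcription factor of bone. Cells came from the calvaria of newborn mice and stood for 21 days in osteogenic medium with ascorbate and glycerol phosphate, and each of 4 cultures was read on its own Affymetrix Mouse Gene ST array, with 2 arrays labelled biological replicates 1 and 2 in each genotype. Both alleles of Runx3 carried loxP sites in the mutant group, and the cre gene was driven by the Col1a1 promoter, which is active in cells that make type I collagen, so other cell types of the cultures need not have lost the gene. The labels do not say whether WT mice carried cre or the floxed allele, whether mice were pooled, or which day and litter a replicate number stands for. P-values therefore measure only the spread between these arrays, which may be partly technical.

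Values are the authors' deposited levels, taken here as log2, so that a difference of 1 would be a doubling. Replicate 1 was the dimmer, with array medians of 5.50 (mutant) and 5.45 (WT), against 6.08 and 6.05 in replicate 2. The mutant and WT arrays of the same number held exactly equal values in 37.8% and 45.1% of rows, and the sources used here do not say why, so an equal pair does not show that a gene was unchanged. Runx3 itself read 7.94 and 8.06 on the mutant arrays against 7.45 and 7.87 in WT. The probes may lie outside the deleted part, which the labels do not give, so this row does not check the deletion. Osteoblast genes were above a floor of 4.71 set by receptor genes taken as silent in bone, with Col1a1 at 13.5 to 13.6, Alpl at 11.3 to 11.4, Ibsp at 11.3 to 13.2 and Dmp1 at 7.20 to 9.15, while Bglap, at 5.19 to 6.06, was close to it. The tissue tag reads myoblast, whereas titles and cell type tag read osteoblast. Muscle genes were read too, with Myod1 and Myog at 5.45 to 6.72, Pax7 at 5.75 to 6.23 and Des at 7.59 to 8.24. The ranges of Myod1, Myog and Pax7 overlap the array medians of 5.45 to 6.08, so those levels do not show that muscle genes were expressed.

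Wnt proteins are secreted lipid-modified ligands that bind Frizzled receptors together with the co-receptors LRP5 or LRP6. In the canonical branch this stabilises beta-catenin, which works with TCF and LEF factors in the nucleus, and in bone it favours osteoblast formation and matrix production. Secreted frizzled-related proteins (Sfrp genes and Frzb) and WIF1 bind Wnt proteins outside the cell, DKK1 and sclerostin (Sost) block the co-receptors, and R-spondins amplify the signal by protecting Frizzled from degradation.

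The clearest differences lay among the secreted antagonists. Frzb, Sfrp1, Sfrp4 and Wif1 were each at least 1.5-fold lower on the mutant array of both replicates, by 1.79-fold to 3.04-fold on average, whereas Dkk2 was 1.89-fold higher. Among the R-spondins, Rspo2 was 1.52-fold lower. Of 9 Frizzled genes tested, 5 were higher by any amount in both replicates, against 16.8% of all genes, led by Fzd7 at 0.58 on the log2 scale. Exactly equal mutant and WT values in both replicates were held by 11 of 19 ligand genes, against 25.7% of all genes. None of these differences passed the adjusted threshold in the limma fit over all genes with group as the only term. After quantile normalization again with the replicate number as a block, Frzb, Wif1 and Dkk2 (limma adjusted p = 0.0387 each), Rspo2 (0.0396) and Sfrp1 (0.0461) passed. That fit called 399 of 17328 genes tested and 5 of 49 members, with 1 residual degree of freedom. Quantile normalization alone and the replicate block alone each called 0 genes.

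Of the 51 members, 50 had at least 2 arrays above that floor and were tested, 48 of them with all 4 arrays above it. Olfactory and vomeronasal receptor genes set this floor: 90% of their 1405 rows had a mean level at or below it. Fzd10, at 3.54 to 4.01, was the member not tested. In limma, with Benjamini-Hochberg adjustment over 17841 genes, 0 members had an adjusted p under 0.05, and 0% of all genes did. At an unadjusted limma p under 0.05 there were 6 of 50 members (12%), against 3.96% of all genes tested; 2 were higher and 4 lower, against 2.06% and 1.9%. In the comparison within replicates, 5 of 50 members (10%) were at least 1.5-fold lower in both, against 1.15% of all genes, and 1 (2%) was at least 1.5-fold higher in both, against 1.47%. At 2-fold in both, 3 members were lower and 0 higher, against 0.572% and 0.476% of all genes. The share of members with exactly equal values in both replicates, 28%, was near the 25.7% of all genes. The median difference of the members tested was 0, as was that of all genes tested. With so many exactly equal pairs, a median of 0 says little about the members. With 2 arrays against 2, an exact two-sided permutation test of a single gene cannot give a p below 0.333.

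**Figure D1:**
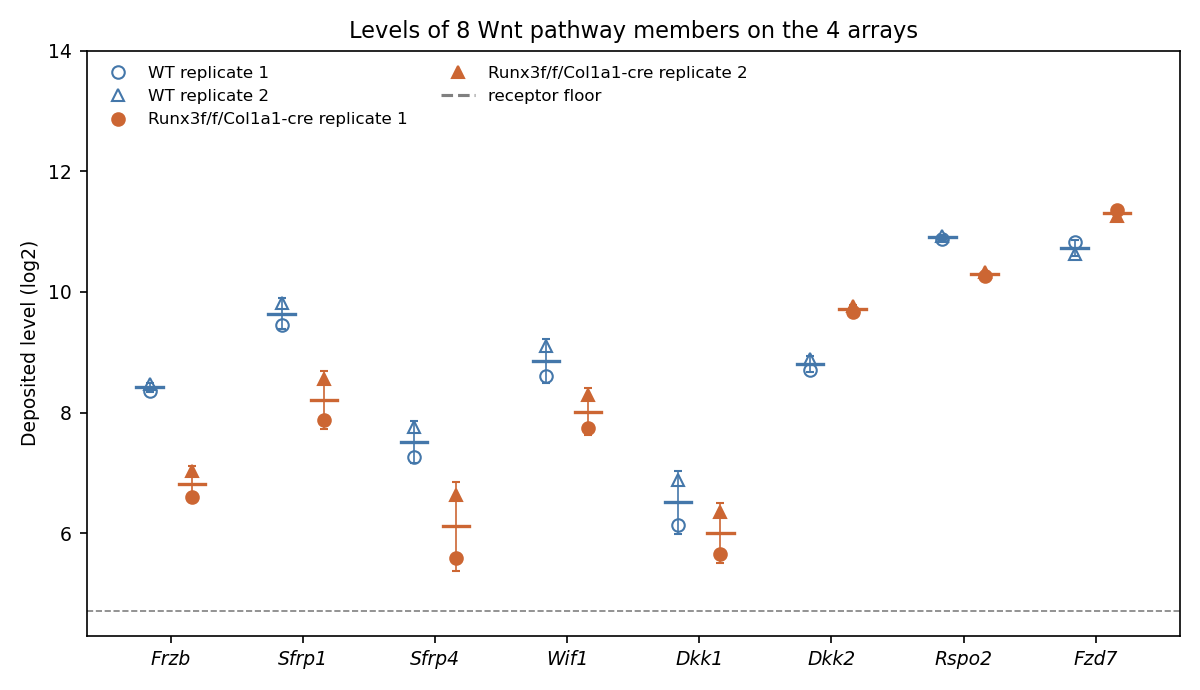
Deposited levels, taken as log2, of 8 members on the 4 arrays, with WT as open and mutant (Runx3f/f/Col1a1-cre) as filled symbols, circles for replicate 1 and triangles for replicate 2. Horizontal bars are group means, error bars are SD (n = 2), and the dashed line is the floor of 4.71; the groups do not overlap except in Dkk1, where the mutant array of replicate 2 (6.35) lies above the WT array of replicate 1 (6.14).

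Frzb encodes a secreted frizzled-related protein first known from cartilage. It read 6.60 and 7.03 on the mutant arrays of replicates 1 and 2 and 8.36 and 8.47 on the WT arrays. Both mutant arrays lay below both WT arrays, at -1.76 within replicate 1 and -1.45 within replicate 2. Group means were 6.82 ± 0.30 and 8.42 ± 0.08 (SD, n = 2), a difference of -1.60 (SE 0.20, limma unadjusted p = 0.00216, adjusted p = 0.431), which was the smallest adjusted p of any member.

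Sfrp1, a Wnt-binding inhibitor whose loss is known to raise bone mass in mice, read 7.87 and 8.55 on the mutant arrays and 9.46 and 9.82 on the WT arrays. The groups did not overlap, with -1.58 and -1.26 within the replicates. Its mean difference of -1.42 (SE 0.31) is a 2.68-fold lower level, at an unadjusted limma p of 0.0133 and an adjusted p of 0.799. Sfrp4, a family member in which human mutations cause thin cortical bone, read 5.59 and 6.64 on the mutant arrays against 7.27 and 7.76 in WT. All mutant values again lay below all WT values, but the 2 mutant arrays were 1.05 apart and the 2 WT arrays 0.49. Both genotypes read higher in replicate 2, the brighter one, and with group as the only term that offset enters the error. The difference of -1.40 had the largest error among the 4 lower antagonists (SE 0.45, limma unadjusted p = 0.0415, adjusted p = 1). After quantile normalization again the SE of Sfrp4 was 0.21. Within the replicates Sfrp4 was 3.21-fold and 2.17-fold lower.

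Wif1 encodes a Wnt-binding protein made by differentiating osteoblasts. Its levels were 7.74 and 8.29 on the mutant arrays and 8.60 and 9.11 on the WT arrays. The highest mutant and the lowest WT value were only 0.31 apart, while the differences within replicates were close to each other, at -0.86 and -0.82. Without regard to the replicate number the limma p was 0.0574 unadjusted and 1 adjusted.

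The Dickkopf genes gave differences of both signs. Dkk2, whose product binds LRP5 and LRP6 and is known to act late in osteoblast maturation, read 9.67 and 9.77 on the mutant arrays against 8.71 and 8.90 in WT. It was the antagonist with a higher mutant level in both replicates by 1.5-fold (0.97 and 0.87), and its mean difference of 0.92 (SE 0.14) had an unadjusted limma p of 0.00404 and an adjusted p of 0.504. Dkk1, the canonical LRP5 and LRP6 blocker, read 5.65 and 6.35 on the mutant arrays and 6.14 and 6.88 on the WT arrays. Its groups overlapped because both genotypes were brighter in replicate 2, and within the replicates it was 1.41-fold and 1.44-fold lower (limma adjusted p = 1). Dkk3, a divergent member of the family, differed by -0.15 in replicate 1 and held equal values in replicate 2, and Dkk4 was equal in both.

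The other antagonists were near 0. Sost, which encodes the osteocyte protein sclerostin, read 5.48 and 6.02 on the mutant arrays and 5.52 and 6.13 in WT, within 1.5 of the floor on every array. Sfrp2, a paralogue of Sfrp1, differed by 0.13 and 0.17, against -1.58 and -1.26 in Sfrp1. A second, dimmer row of Sfrp2 differed by 0.17 and 0. Notum, a secreted enzyme that strips the lipid from Wnt proteins, was lower by 0.44 in replicate 1 and equal in replicate 2. Its second row was equal in both replicates. Sostdc1 differed by 0.15 and 0, and Sfrp5 was equal in both. Of 13 antagonists, 6 were lower and 2 higher by any amount in both replicates, against 19.5% and 16.8% of all genes, and their median difference was -0.08, beside 0 over all genes tested.

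**Figure D2:**
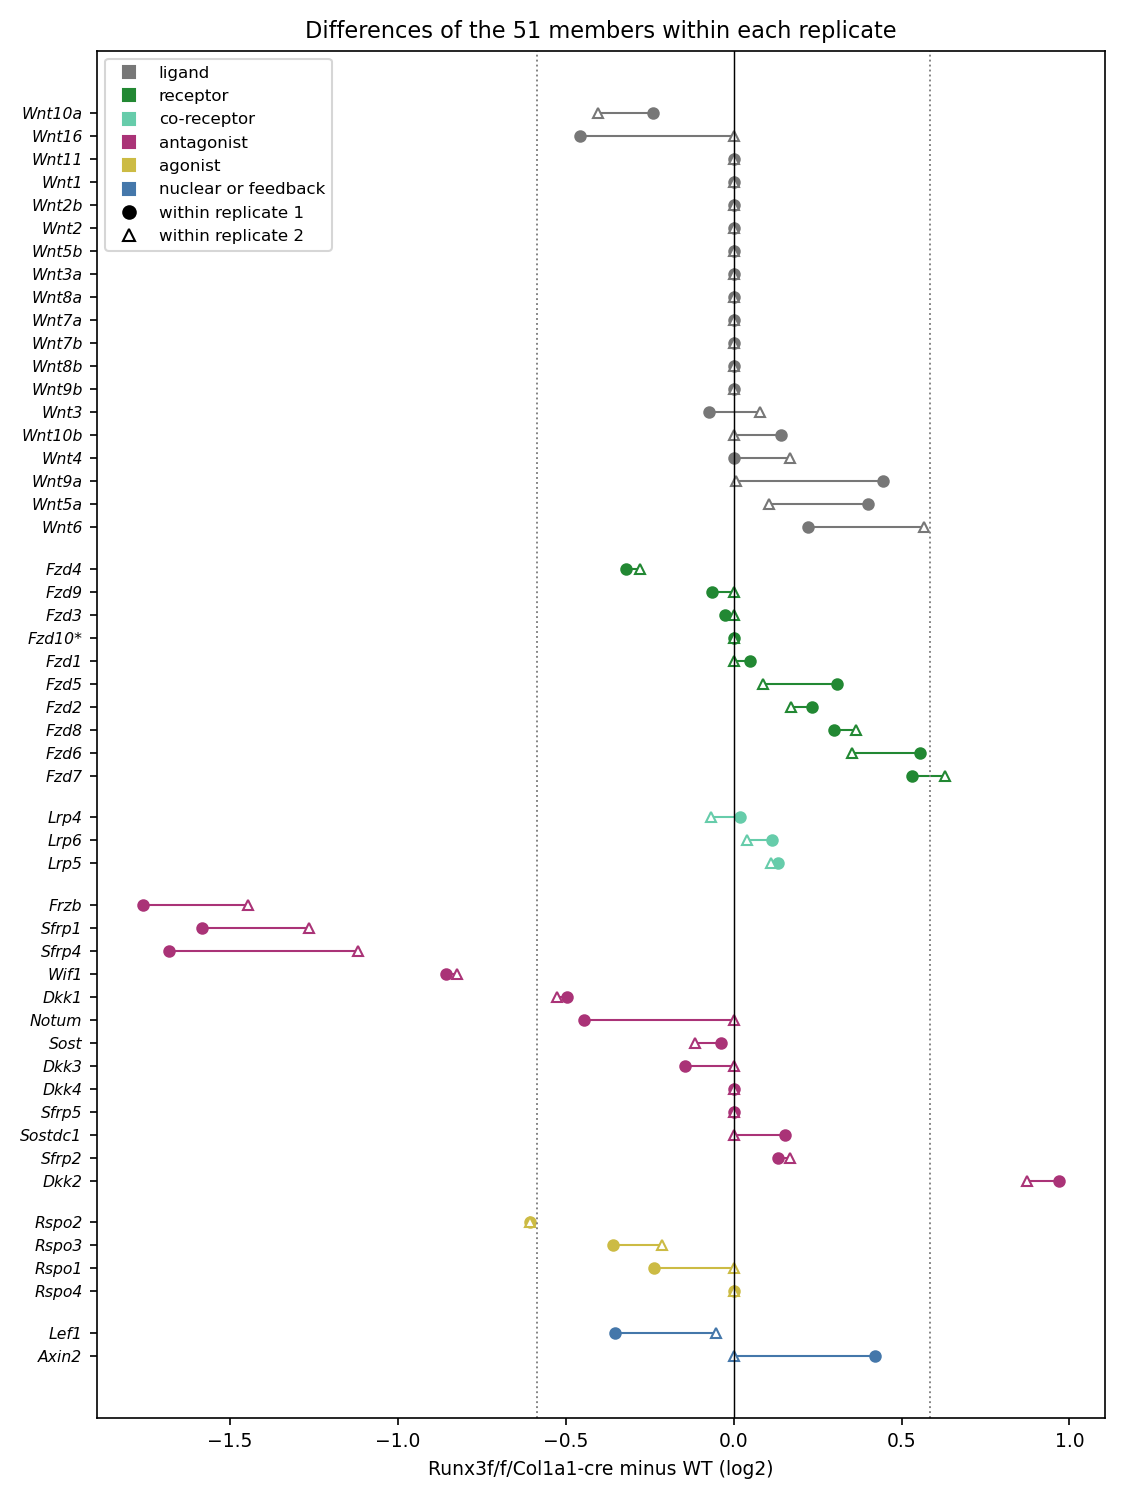
Mutant minus WT log2 difference of each of the 51 members within replicate 1 (filled circles) and within replicate 2 (open triangles), grouped by role; dotted lines mark 1.5-fold and the asterisk marks Fzd10, below the floor. Frzb, Sfrp1, Sfrp4, Wif1 and Rspo2 lie beyond the left line in both replicates, Dkk2 beyond the right one, and 11 ligands at 0 in both.

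Promoter sequences are shown for the members past 1.5-fold in both replicates and the pair nearest to that limit, Fzd7 and Dkk1, where the RefSeq table holds them, so that the letters upstream of genes that differ on the Runx3-mutant arrays can be read. They are the 250 bases before the annotated start, 5′ to 3′ on the strand of the gene, in GRCm38.p6. Capitals mark matches on either strand to a RUNX motif (TGTGGT or TGCGGT) or a TCF/LEF motif (CTTTGA or CTTTGT), and no match to one motif overlaps a match to the other in these windows.
Frzb, chr2:80447397-80447646, minus strand: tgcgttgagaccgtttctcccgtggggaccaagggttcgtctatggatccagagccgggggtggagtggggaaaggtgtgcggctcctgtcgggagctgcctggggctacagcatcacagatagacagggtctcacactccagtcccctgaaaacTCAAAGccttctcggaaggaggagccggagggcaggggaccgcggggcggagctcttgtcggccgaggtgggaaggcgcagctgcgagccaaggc
Wif1, chr10:121033754-121034003, plus strand: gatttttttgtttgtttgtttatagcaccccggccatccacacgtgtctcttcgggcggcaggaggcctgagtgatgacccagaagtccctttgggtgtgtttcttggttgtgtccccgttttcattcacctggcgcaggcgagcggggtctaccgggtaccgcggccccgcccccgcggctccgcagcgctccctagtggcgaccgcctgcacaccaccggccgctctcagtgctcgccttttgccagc
Dkk1, chr19:30549497-30549746, minus strand: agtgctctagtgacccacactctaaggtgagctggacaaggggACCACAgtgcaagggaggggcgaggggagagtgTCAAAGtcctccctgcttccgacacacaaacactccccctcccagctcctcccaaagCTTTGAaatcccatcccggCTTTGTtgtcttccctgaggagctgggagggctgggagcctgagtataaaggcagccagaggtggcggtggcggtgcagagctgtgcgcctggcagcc
Dkk2, chr3:132085042-132085291, plus strand: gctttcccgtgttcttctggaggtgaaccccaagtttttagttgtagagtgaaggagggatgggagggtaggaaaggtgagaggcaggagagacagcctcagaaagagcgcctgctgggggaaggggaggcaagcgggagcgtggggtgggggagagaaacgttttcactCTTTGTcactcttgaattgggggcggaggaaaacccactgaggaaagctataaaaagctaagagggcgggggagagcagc
Fzd7, chr1:59481897-59482146, plus strand: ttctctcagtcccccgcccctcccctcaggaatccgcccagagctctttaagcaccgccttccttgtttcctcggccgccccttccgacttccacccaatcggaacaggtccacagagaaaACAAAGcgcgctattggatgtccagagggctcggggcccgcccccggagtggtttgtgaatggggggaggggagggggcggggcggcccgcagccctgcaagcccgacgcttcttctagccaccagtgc

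No promoter sequence of Sfrp1, Sfrp4 or Rspo2 was available here, so those were not searched. Among the windows shown, a RUNX match was found in that of Dkk1, as ACCACA at -207 to -202 counted from the start. Dkk1 also held 3 TCF/LEF matches, at -174 to -169, -117 to -112 and -98 to -93. Frzb held a TCF/LEF match at -95 to -90, Dkk2 at -80 to -75 and Fzd7 at -129 to -124, and the window of Wif1 held neither motif. Of 32851 promoter windows of this length in the table, 18.6% held a RUNX match and 27.6% a TCF/LEF match. The corresponding shares were 10.5% and 23.7% of 38 windows from 32 members. A match is a description of letters and not a binding site.

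Of 4 R-spondin genes, 2 were lower by any amount in both replicates, against 19.5% of all genes. Rspo2, an amplifier of Wnt signalling through LGR receptors, read 10.27 and 10.33 on the mutant arrays and 10.88 and 10.93 on the WT arrays. Replicates of a group lay within 0.06 of each other, and the difference was -0.61 in both replicates (SE 0.12, limma unadjusted p = 0.00938, adjusted p = 0.682). That places Rspo2 just past the 1.5-fold limit of 0.58, with Fzd7 just short of it at 0.53 in replicate 1. Rspo3 was lower by 0.36 and 0.21, with groups that did not overlap (limma adjusted p = 1). Such lower groups made up 9.25% of all genes tested. Rspo1 differed by -0.24 and 0, and Rspo4 was equal in both replicates.

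The 9 Frizzled receptors tested, of which 1 was lower in both replicates, had a median difference of 0.20, beside 0 over all genes tested. Fzd7, a receptor of mesenchymal progenitors, read 11.35 and 11.26 on the mutant arrays and 10.82 and 10.63 on the WT arrays. Its groups did not overlap, and the difference of 0.58 (SE 0.14) had an unadjusted limma p of 0.0178 and an adjusted p of 0.866. Fzd8 read 10.48 and 10.59 against 10.18 and 10.23 in WT, a difference of 0.33 (SE 0.12, limma adjusted p = 1). Fzd2 and Fzd5 also had mutant values above all WT values, with mean differences of 0.20 each. Fzd6 was higher by 0.56 and 0.35 within the replicates, although its groups overlapped. Fzd4, which also serves the ligand Norrin, went the other way, at -0.32 and -0.28, while Fzd1, Fzd3 and Fzd9 differed by at most 0.06 in replicate 1 and were equal in replicate 2. Groups that do not overlap and are higher made up 7.66% of all genes tested, and such lower groups 9.25%.

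The groups overlapped in all 3 co-receptor genes. Lrp5 read 11.01 and 10.86 on the mutant arrays against 10.88 and 10.75 in WT, and Lrp6 11.85 and 11.71 against 11.73 and 11.67. Mean differences of Lrp5 and Lrp6 were 0.12 and 0.08. In a second, dimmer row Lrp6 differed by 0 and 0.05. Lrp4, a receptor that anchors sclerostin, differed by 0.02 in replicate 1 and -0.07 in replicate 2.

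No ligand gene reached 1.5-fold in either replicate, and several were dim. Wnt5a, a ligand of the non-canonical branch, read 8.54 and 8.47 on the mutant arrays and 8.14 and 8.36 on the WT arrays, so that the groups did not overlap but were 0.25 apart on average (SE 0.14, limma adjusted p = 1). Wnt10a, at 6.48 and 6.70 against 6.72 and 7.11 in WT, was the other ligand with separate groups, at -0.32. Separate groups were thus held by 1 of 19 ligands in each direction, against 7.66% (higher) and 9.25% (lower) of all genes tested. Wnt6 was higher by 0.22 and 0.57, and Wnt9a by 0.45 and 0.01, with overlapping groups. Wnt10b, a ligand known to promote bone formation, differed by 0.14 and 0, Wnt4 by 0 and 0.17, and Wnt16, a ligand of cortical bone, by -0.46 and 0. Wnt3 differed by -0.07 and 0.08 and passed the floor through replicate 2 alone, as did Wnt8b. Replicate 2 was brighter in the receptor rows too, with 90th percentiles of 5.08 and 5.06 on its arrays, and Wnt8b, at 4.86 there, lay below them. Equal values in both replicates were held by 11 of 19 ligands, against 25.7% of all genes tested. They were Wnt1, Wnt2, Wnt2b, Wnt3a, Wnt5b, Wnt7a, Wnt7b, Wnt8a, Wnt8b, Wnt9b and Wnt11. Of these, Wnt1, Wnt3a, Wnt7a and Wnt8b lay below the array median on every array. Wnt2, Wnt2b, Wnt5b, Wnt9b and Wnt11 lay above it on every array, and Wnt7b and Wnt8a on some. At any of these levels an equal pair says little about the ligand. Brighter rows were equal in both replicates too, such as that of Tle3, at 10.29 in replicate 1 and 9.68 in replicate 2.

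Both readouts of canonical signalling among the members overlapped between the groups. Axin2, a direct target of beta-catenin and a feedback inhibitor, read 7.78 and 7.81 on the mutant arrays and 7.36 and 7.81 on the WT arrays. It was higher by 0.42 in replicate 1 and equal in replicate 2 (limma adjusted p = 1). A second row of Axin2 differed by 0.12 and 0.09. Lef1, a nuclear partner of beta-catenin, read 5.86 and 6.26 against 6.22 and 6.31 in WT, at -0.35 and -0.05.

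**Figure D3:**
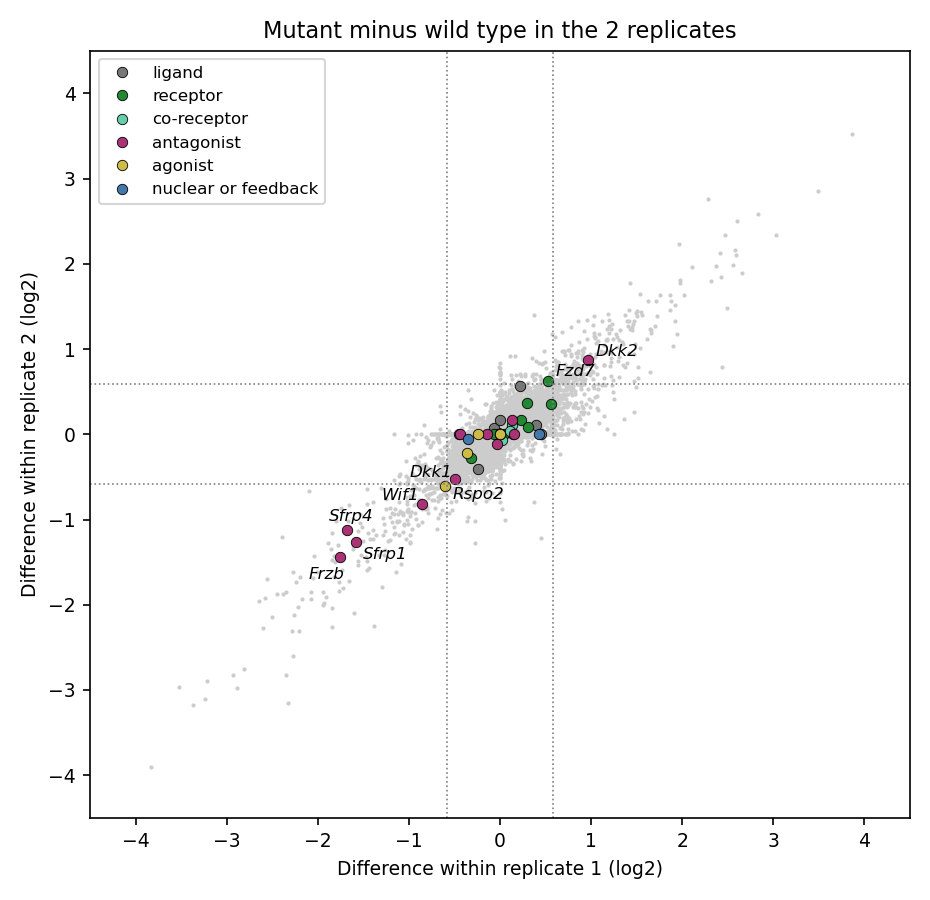
Mutant minus WT log2 difference within replicate 1 (x axis) against that within replicate 2 (y axis) for 17841 genes tested (grey) and the 50 members tested (coloured by role); dotted lines mark 1.5-fold. Frzb, Sfrp1, Sfrp4, Wif1, Rspo2 and Dkk2 lie beyond the dotted lines in both replicates, and Fzd7 and Dkk1 are the nearest to them.

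The 2 replicates gave like differences for the members, though not like levels. On the WT arrays, 43 of the 50 members tested read higher in replicate 2. Differences within replicate 1 and within replicate 2 had a Pearson r of 0.93 over the 50 members tested, and also over the 36 not equal in both. Each replicate's pair of arrays shares equal values in many rows, and genes are not independent points, so this is a description. Lrp4 and Wnt3 were the members with opposite signs, and over all genes tested 0 were 1.5-fold apart in opposite directions.

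Other genes of the pathway were read from 3 lists. They held 92 genes tested, of which 0 passed the adjusted limma threshold. At an unadjusted p under 0.05 there were 8, all of them higher, against 2.06% of all genes in that direction. At least 1.5-fold in both replicates, 4 were higher and 0 lower, against 1.47% and 1.15% of all genes. Groups did not overlap in 21 higher and 10 lower genes, against 7.66% and 9.25%.

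Genes of ligand processing and reception included the largest of these differences. Ror1, a receptor tyrosine kinase for Wnt5a, read 10.02 and 10.12 on the mutant arrays and 8.74 and 9.09 on the WT arrays. Groups lay well apart, with 1.28 and 1.03 within the replicates (mean 1.15, SE 0.18, limma unadjusted p = 0.00434, adjusted p = 0.527). Its paralogue Ror2 was higher by 0.37 and 0.43 (limma unadjusted p = 0.0394, adjusted p = 1). Porcn, the enzyme that attaches the lipid to Wnt proteins, read 10.26 and 10.49 against 9.44 and 9.78 in WT, a difference of 0.76 (SE 0.19, limma adjusted p = 0.91). Gpc3, a cell-surface glypican, was higher by 0.65 and 0.46, and Kremen1, a Dickkopf co-receptor, by 0.31 and 0.37. Wls, which carries Wnt proteins to the cell surface, differed by -0.05 on average. The R-spondin receptors Lgr4 and Lgr6, singled out after their values were seen because Rspo2 was lower, differed by -0.57 and -0.62, and Lgr5 by 0.31 (limma adjusted p = 1 for each). In this list of 26 genes tested the median was 0.04.

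In a list of intracellular pathway genes together with the planar polarity genes, some of which encode membrane proteins, 0 of 47 genes tested reached an unadjusted limma p of 0.05 or 1.5-fold in both replicates, and their median was 0.0016. Ctnnb1, which encodes beta-catenin, differed by 0.05 and 0. The feedback inhibitors Nkd1 and Nkd2 were higher by 0.61 and 0.26 and by 0.33 and 0.25, and the planar polarity gene Prickle1 by 0.62 and 0.25 (limma adjusted p = 1 for each).

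Of 26 genes known as Wnt targets in some tissues, some of which are also in the other lists, Tnfrsf19 and Myc were at least 1.5-fold higher in both replicates. Tnfrsf19, a TNF receptor family member, read 10.51 and 10.64 on the mutant arrays and 9.60 and 9.67 on the WT arrays, a difference of 0.94 (SE 0.13, limma unadjusted p = 0.00271, adjusted p = 0.465). Myc, a growth regulator with many inputs, was higher by 0.67 and 0.73 (limma adjusted p = 1). Jag1, a Notch ligand, was higher by 0.51 and 0.62, and Fgf18, a growth factor of calvarial bone, by 0.35 and 0.49. Over the list of 26, 9 genes were higher and 8 lower in both replicates, against 16.8% and 19.5% of all genes. Among the lower, picked after their values were seen, were the cyclin gene Ccnd1 at -0.33 and -0.30, Ahr at -0.47 and -0.25 and Tnfrsf11b, which encodes osteoprotegerin, at -0.23 and -0.27. The median of the list was -0.0025.

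**Figure D4:**
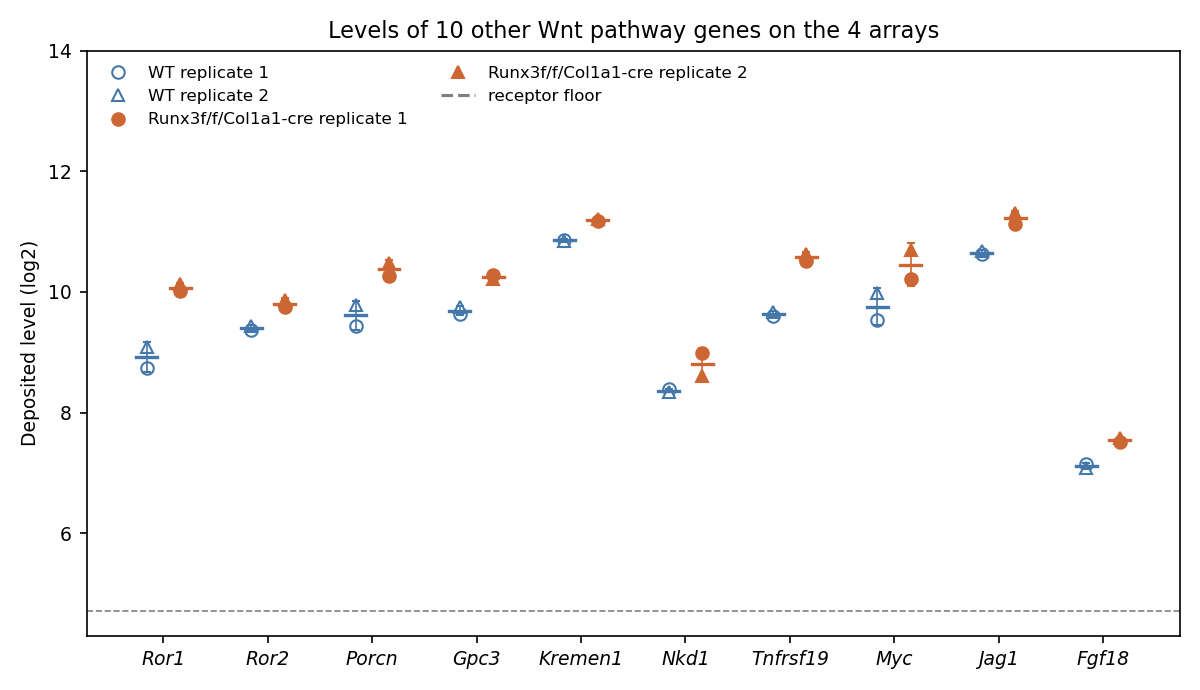
Deposited levels, taken as log2, of 10 other genes of the Wnt pathway on the 4 arrays, drawn with WT open and mutant filled, circles for replicate 1 and triangles for replicate 2, bars for means and error bars for SD (n = 2). The 10 were drawn because they were among the higher genes of their lists with the smallest p, so that both mutant arrays lie above both WT arrays follows from that choice; Ror1 read 10.02 and 10.12 against 8.74 and 9.09.

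Markers of several cell types also differed between these arrays. For the counts below, 19.5% of all genes tested were lower and 16.8% higher by any amount in both replicates. Of 25 macrophage markers, 23 were lower on the mutant array of both replicates, and their summed level, after 2 was raised to the power of each value, was 5253 and 6087 on the mutant arrays against 13181 and 14120 in WT. Of 14 mineralizing osteoblast genes with a row, 9 were lower in both and 1 higher, with sums of 35025 and 39551 against 42553 and 47651. Of 10 osteocyte genes, which include Sost and Dkk1, 9 were lower in both, with sums of 3982 and 4751 against 5094 and 5930. Dmp1, Mepe and Phex were counted in both the osteoblast and the osteocyte list. Chondrocyte genes, as background for Frzb, were lower in both for 8 of 12, with sums of 9847 and 10845 against 14047 and 14479, and adipocyte genes for 8 of 11, with sums of 2858 and 2833 against 6258 and 6252. Fibroblast and suture markers had sums of 47002 and 52703 against 45482 and 51183, with 7 of 13 genes higher in both and 3 lower. For 13 endothelial markers, 3 of them higher in both, the sums were 4413 and 4656 against 4065 and 4335, and for 10 muscle markers 799 and 1194 against 727 and 1181. No marker was at 0, and the muscle myosin Myh3 was the one below the floor on all 4 arrays. The part of these cell types in the differences of Frzb, Sfrp1, Sfrp4, Wif1, Dkk2 and Rspo2 was not tested, and in these bulk cultures fewer cells of a type cannot be told apart from less RNA per cell.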

How the data were processed

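Total RNA (200 ng) of 4 osteoblast cultures was labelled and hybridised to 4 arrays, per the labels' protocols. The authors deposited values that were taken here as log2. Partek and RMA are named in the submitters' processing notes, without version or role. The log base is inferred from the range of 2.26 to 14.1, while the sources used here state neither the centring nor how arrays were combined. No file with probe intensities or background flags was used here, so detection rests on the floor; the number of arrays limits the precision.

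Of 41345 rows, 23521 carried 1 symbol in the supplied platform annotation and were used. The Entrez IDs of 51 of 51 members gave the same symbol in RefSeq. Genes were fitted in R 4.3.3 with limma 3.58.1 (group as the only term, two-sided, Benjamini-Hochberg over 17841 genes). A run on simulated data with independent noise checked that the fit returned the size of the differences put in. Those data held no exactly equal pairs, so the run is no check on the p-values given here. Members, roles, lists and the rule for named genes (members at least 1.5-fold apart in both replicates, at unadjusted p under 0.05, among the 10 highest mean levels, or listed by symbol; up to 3 pathway genes per list) were chosen with earlier results of these data known. Alternatives varied the filter, normalization, choice of rows, variance model, array weights, replicate block and arrays.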

Additional observations from a re-analysis of the deposited data

How the results depend on the processing

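Of 35 named genes, 34 or more kept their direction under each alternative that used all 4 arrays; Fzd1 turned to -0.0153 when arrays were centred on their medians. The replicate number as a block left 0 genes and 0 members past the adjusted limma threshold, as did the other fits with all arrays except those named next. The intensity trend called 49 genes and 0 members. Quantile normalization again with the replicate block called 399 of 17328 genes and 5 of 49 members. These 5 were Frzb, Wif1 and Dkk2 (limma adjusted p = 0.0387 each), Rspo2 (0.0396) and Sfrp1 (0.0461), with Myc (0.0449), Porcn (0.0491) and Tnfrsf19 (0.0387) of the other pathway genes; Sfrp4 was at 0.0611 and Fzd7 at 0.0503. At an unadjusted limma p under 0.05, the 6 members became 12 with the replicate block, 11 and 17 with quantile normalization again without and with it, and 3 to 5 with an array left out; the 707 genes became 2319, 1304, 3587 and 276 to 420. The same-numbered arrays deviated together (Pearson r = 0.92 across genes), but with 2 pairs the numbers are not shown to pair cultures. With 1 residual degree of freedom in the block fits and equal values in many rows, the small p-values there rest on few data.

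The median difference of the members became -0.0367 with quantile normalization again, with or without the replicate block, and -0.0393 after median centring, where that of all genes was -0.03 and -0.04. With an array left out, the offset between replicates enters the difference. The members' median then ran from -0.22 to 0.20, that of all genes from -0.16 to 0.15, and 0 genes passed. Directions turned in Dkk3 (-0.25 to 0.11), Lrp4 (-0.15 to 0.10), Sost (-0.38 to 0.23), Wnt16 (-0.75 to 0.29), Axin2 (-0.0150 to 0.44), Fzd1 (-0.12 to 0.17), Wnt10b (-0.0158 to 0.16) and Wnt4 (-0.20 to 0.37). Frzb ran from -1.82 to -1.39, Sfrp1 from -1.76 to -1.08, Sfrp4 from -1.93 to -0.88, Wif1 from -1.11 to -0.57, Dkk2 from 0.83 to 1.02 and Rspo2 from -0.63 to -0.58. At 2-fold in place of 1.5-fold in both replicates, 3 members were lower (Frzb, Sfrp1 and Sfrp4) and 0 higher. From replicate 2 alone 2 members were higher by 1.5-fold (Dkk2 and Fzd7), against 1 from replicate 1, and 5 were lower in each.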
